A study of Mus musculus with 6 samples.

Results

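The nectins Nectin1, Nectin2 and Nectin3, the nectin-like receptor Pvr and the nectin-binding scaffold Afdn (afadin) were read from 20 probe sets of the 45101 on the array. A probe set is a group of short probes that together give 1 signal, and those used here are all that the platform annotation assigns to 1 of these 5 genes alone: 3 for Nectin1, 2 for Nectin2, 6 for Nectin3, 7 for Pvr and 2 for Afdn. These are 5 of the 18193 named genes with such a probe set. The group was chosen because Nectin3 rose from the floor in the knockout arrays, so the Nectin3 values are given as a description without a test.

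The samples were mouse lung endothelial cells kept for 16 h at 0.5% oxygen, with 3 control arrays and 3 arrays of cells lacking HIF-2a, the oxygen-sensitive transcription factor encoded by Epas1. Knockout cells came from mice with both Hif-2a alleles floxed and with Cre recombinase driven from the VE-Cadherin promoter, which is active in endothelium. The labels describe the controls in 3 ways: as floxed on both alleles, as VE-Cadherin-Cre with 1 floxed and 1 WT allele, and as wild type. No array was run at normal oxygen, and a response to oxygen is therefore not part of the comparison. Whether the 3 arrays of a group stand for different cultures or mice is not given in the labels, and the p-values cover no more than the spread among these arrays, which may be technical.

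Nectins are immunoglobulin-like proteins that span the membrane and join neighbouring cells at adherens junctions, each pairing with itself or, more tightly, with certain other nectins; Nectin3 pairs with Nectin1, Nectin2 and Pvr. Inside the cell the nectin tail binds afadin, which holds it to actin and to the cadherin and catenin complex. Pvr (CD155) lacks the afadin-binding tail, and Pvr and Nectin2 are also ligands for receptors of natural killer and T cells.

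The 250 bases upstream of the RefSeq start site are shown for Nectin3, which moved most, and for Nectin2, the nectin with signal on all arrays. They come from the RefSeq promoter table of build GRCm38.p6, which matched 3 of the 5 genes (Nectin2, Nectin3 and Afdn), and both lie on the minus strand, Nectin3 at chr16:46496968-46497217 and Nectin2 at chr7:19749574-19749823. The gene table spans Nectin3 at chr16:46387665-46498535, so the Nectin3 window lies inside the gene and its start site is not the outermost. The Nectin2 window adjoins its gene span. The Afdn window, chr17:13760291-13760540, runs into the Afdn span, which begins at 13760391. Capitals mark the core letters of the hypoxia response element, searched as ACGTG and GCGTG on both strands. The palindrome CACGTG, which is also the E-box letters, would count on both strands.
Nectin3: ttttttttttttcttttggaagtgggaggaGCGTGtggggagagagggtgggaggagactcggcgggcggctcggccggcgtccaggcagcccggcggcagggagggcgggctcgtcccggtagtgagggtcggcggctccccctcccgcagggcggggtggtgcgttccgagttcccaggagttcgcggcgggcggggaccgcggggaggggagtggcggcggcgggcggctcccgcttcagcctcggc
Nectin2: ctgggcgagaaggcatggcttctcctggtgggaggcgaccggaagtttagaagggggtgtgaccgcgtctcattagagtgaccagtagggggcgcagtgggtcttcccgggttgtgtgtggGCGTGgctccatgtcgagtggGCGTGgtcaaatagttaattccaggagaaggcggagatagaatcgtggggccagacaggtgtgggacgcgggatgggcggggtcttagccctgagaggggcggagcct

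The Nectin3 window held 1 match, GCGTG, starting at position -220 from the start site, and the Nectin2 window held 2, GCGTG at -129 and -108. The Afdn window, not printed, held 5, all GCGTG on the opposite strand, more than 99.0% of the promoter windows, at a GC content of 82.8%. Those at -129, -125 and -121 share letters in a short repeat and were each counted, as overlapping matches were in all windows. At least 1 match was present in 38.6% of 32851 promoter windows of that length. The GC content of these windows was 73.2% for Nectin3 and 62.0% for Nectin2. A match describes letters only, not binding.

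Before the comparison, the arrays were checked against their labels. The bright Epas1 probe set read 9611, 9590 and 9444 on controls 1 to 3. On knockouts 1 to 3 it read 8920, 9397 and 9859 (limma adjusted p = 0.768). A dim Epas1 probe set, 1449888_at, read 11.4, 10.3 and 11.4 on the controls, under the floor signal. On the knockouts 1449888_at read 21.7, 18.0 and 11.5 (log2 difference 0.28, limma adjusted p = 0.254). Where the probes lie relative to the deleted part was not used here, so the genotype rests on the labels. None of 10 endothelial markers of a fixed list, Emcn and Cdh5 the brightest, was at the floor in either group. Of these, Cldn5 (15.2 to 74.7) and Vwf (32.9 to 69.1) were dim, and Cldn5 was under 16 on knockout 3. The summed signal of the 10 markers was lower in the knockouts without overlap (113163 to 120834 in controls and 90500 to 99763 in knockouts). Of their 12 probe sets 8 did not overlap between the groups, against 31.2% of all probe sets tested. The 2 that passed were lower, Tek (-1.24, limma adjusted p = 0.0227) and Erg (-0.67, adjusted p = 0.0359). That is 16.7%, against 7.65% called in either direction and 3.19% called lower over all probe sets tested. The median log2 difference of the 12 was -0.53. All 9 epithelial markers, Sftpc and Cdh1 the brightest, were at the floor on every array. Of 9 mesenchymal markers 8 were at the floor (Tagln was not, and Pdgfra was the next brightest), with a summed signal of 71.3 to 115 in controls and 109 to 246 in knockouts. Of 8 leukocyte markers 7, including Ptprc and Csf1r, were at the floor, and Cd68 alone had signal (summed 3719 to 4284 in controls and 787 to 1157 in knockouts). Cd68 was called lower (-2.01, limma adjusted p = 0.0118). Of 7 neural markers Tubb3 had signal in both groups, Nefl had signal in the knockouts only, and 5, including Map2 and Rbfox3, were at the floor (summed 1156 to 1479 and 3152 to 4819). Nefl 1426255_at read 4.87 ± 0.03 in controls and 1858 ± 253 in knockouts (SD, n = 3). The part of these differences in the results below was not tested.

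Within a group, controls 1 and 3 were the closest pair (SD of their log2 difference over probe sets 0.16, and 0.32 to 0.71 for the other pairs). The mean log2 signal of the bioB and bioC spike-in probe sets (the spike-in level), which read control transcripts from bacteria, was 10.34, 10.57 and 10.38 on controls 1 to 3 and 10.69, 10.80 and 10.54 on knockouts 1 to 3. Knockout 3 thus lay near control 2 on this measure, and knockouts 1 and 2 lay above all controls. On every array, 41.4% to 42.6% of probe sets lay over a signal of 16, the level taken here as the floor.

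Nectin3 signal appeared in the knockout arrays and was at the floor in every control array. Its brightest probe set, 1423331_a_at, read 4.85, 4.84 and 4.89 intensity units on controls 1 to 3 and 684, 724 and 617 on knockouts 1 to 3. All 3 knockouts were thus far over the floor and close to each other (675 ± 54.5, mean ± SD, n = 3), at least 42.1-fold higher when set against the floor. A second probe set, 1448673_at, read 4.15, 4.15 and 4.18 on the controls and 340, 205 and 432 on the knockouts, at least 19.5-fold higher. Its knockout arrays spread more, over 326 ± 114 (SD, n = 3), with knockout 3 the highest and knockout 2 the lowest.

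The remaining Nectin3 probe sets were dim, and 2 of them differed between knockout arrays. Probe set 1417319_at read 5.12, 5.13 and 5.26 on the controls but 68.2, 5.5 and 91.5 on knockouts 1 to 3, so knockout 2 stayed at the floor. Probe set 1457257_x_at, whose suffix marks probes that can also bind other transcripts, read 5.43, 5.44 and 5.51 on the controls and 14.7, 7.52 and 40.5 on the knockouts, and passed the floor on knockout 3 alone. The knockout arrays were therefore ranked in opposite order by different probe sets of 1 gene: knockout 2 was the highest and knockout 3 the lowest in 1423331_a_at, and the reverse held in 1448673_at, 1417319_at and 1457257_x_at.

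Probe sets 1421132_at and 1421133_at stayed between 4.11 and 4.73 on all 6 arrays. Both were designed from another RefSeq record of Nectin3 than 1448673_at and 1417319_at, and the gene table lists several Nectin3 transcripts. Of the 6 Nectin3 probe sets 4 passed the filter on low values, and the 2 left out were these floor ones. The filter cut was a mean of 4.94 over all arrays. The control means of 1423331_a_at (4.86) and 1448673_at (4.16) lay under it, so these passed only through their knockout values. The probe sets are parts of 1 gene and not independent measurements. Over all 27022 probe sets tested, 0.374% rose from the floor in all controls to above it in all knockouts.

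**Figure D1:**
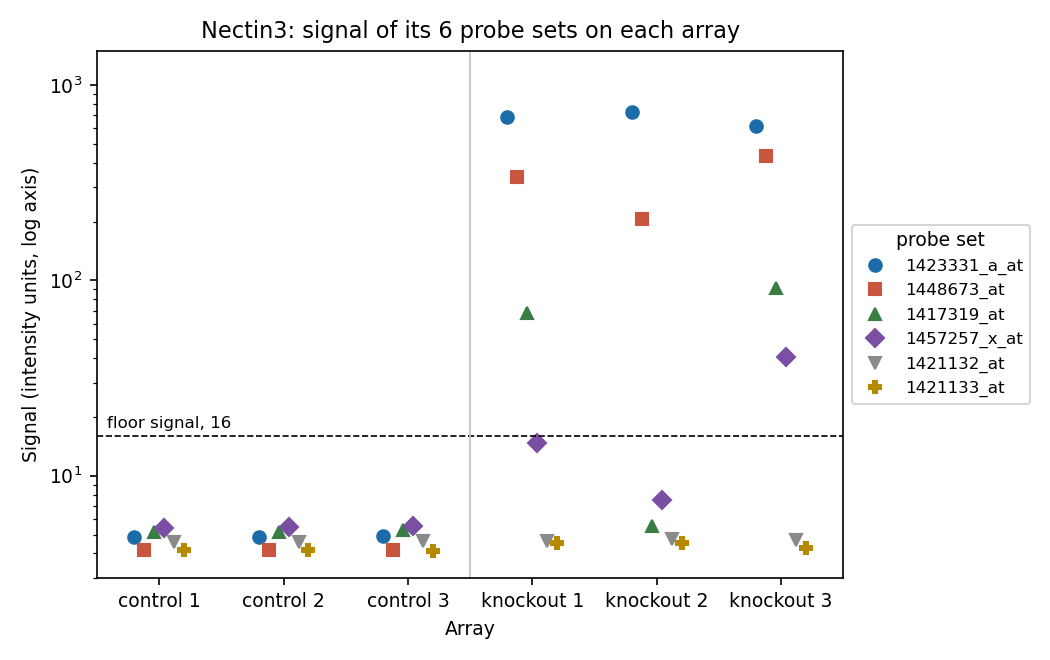
Signal of the 6 Nectin3 probe sets (intensity units, log axis) on each of the 6 arrays, 1 point per array, with the floor signal of 16 as a dashed line. All control points lie below the line, while 1423331_a_at lies between 617 and 724 and 1448673_at between 205 and 432 on the knockouts, and 1417319_at is at the floor on knockout 2.

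In the 2 brightest Nectin3 probe sets the size of the difference moved with the pseudocount added before the log, and less with any 1 array. On the log2(intensity + 16) scale the knockout minus control difference of 1423331_a_at was 5.05, and it ran from 5.0 to 5.11 with each array left out in turn and was 4.93 with the spike-in level in the fit. For 1448673_at it was 4.02, and 3.80 to 4.31 with an array left out. With a pseudocount of 1 the 2 values were 6.85 and 5.92, and with 64 they were 3.42 and 2.47. The difference of 1417319_at was 1.45, with 1.01 without knockout 3, 2.17 without knockout 2 and 2.58 with the spike-in level in the fit. That of 1457257_x_at was 0.68, with 0.33, 0.96 and 1.33 in the same settings.

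Nectin1, the widely expressed nectin that pairs with Nectin3, gave no signal. Its 3 probe sets lay between 4.44 and 4.93 on all 6 arrays, and all 3 were left out by the filter on low values. The same was seen for the rest of the family: the 10 probe sets of Nectin4 and of the nectin-like Cadm1, Cadm3 and Cadm4, cell adhesion molecules of epithelium and synapses, lay between 3.69 and 4.77, and Cadm2 had no probe set of its own. A probe set at the floor does not show that a transcript is absent.

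Nectin2, a nectin of endothelial and many other cells, had clear signal on all arrays and did not pass the test. Its brighter probe set, 1424456_at, read 3699, 4526 and 3472 on controls 1 to 3 and 5872, 6099 and 4475 on knockouts 1 to 3. Knockouts 1 and 2 lay above all controls and knockout 3 just below control 2, so the groups overlapped. The means were 3899 ± 555 and 5482 ± 879 (SD, n = 3), and the log2 difference was 0.49 ± 0.17 (SE, 95% interval 0.04 to 0.93, limma adjusted p = 0.164).

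The other Nectin2 probe set, 1417703_at, read 999, 1235 and 952 on the controls and 1185, 1388 and 905 on the knockouts. Its lowest and its highest arrays were both knockouts, 3 and 2. The log2 difference was 0.11 ± 0.20 (SE, interval -0.40 to 0.63, limma adjusted p = 0.785). It turned to -0.026 without knockout 2, and to -0.38 when the fit held the spike-in level as a further term (the spike-in covariate), which also lowered 1424456_at to 0.08.

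Pvr, the receptor that pairs with Nectin3 across cell contacts, was slightly higher in the knockout mean in each of its 5 probe sets over the floor, without any passing the test. The brightest, 1451160_s_at, read 7724, 7922 and 7742 on the controls and 8206, 8434 and 8133 on the knockouts. The groups did not overlap, but the step was small, 0.08 ± 0.02 on the log2 scale (SE, interval 0.03 to 0.14, limma adjusted p = 0.0934). Probe set 1423904_a_at read 1280, 1313 and 1286 on the controls and 1684, 1721 and 1353 on the knockouts. Here the controls were tight and knockout 3 lay just above them, with a log2 difference of 0.28 ± 0.10 (SE, interval 0.01 to 0.55, limma adjusted p = 0.178). Without knockout 3 the difference was 0.39 and passed (adjusted p = 0.0113), and with the spike-in covariate it was 0.08.

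In the other Pvr probe sets over the floor, knockout 3 was the lowest array of all 6. Probe set 1423905_at read 366, 437 and 362 on the controls and 527, 534 and 335 on the knockouts. Probe set 1450295_s_at read 359, 596 and 404 against 719, 536 and 337. Probe set 1423903_at read 6042, 5999 and 5937 against 6328, 6739 and 5852. Their log2 differences of 0.23, 0.19 and 0.07 had intervals that include 0 (adjusted p = 0.559, 0.80 and 0.483), and with the spike-in covariate they turned to -0.25, -0.53 and -0.031. Probe set 1450295_s_at also turned, to -0.055, without knockout 1. The 2 remaining Pvr probe sets, 1429848_at and 1445149_at, stayed between 5.69 and 10.6 on all arrays, under the floor signal.

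Afdn, the scaffold that ties nectins to actin, went the other way in its mean and did not pass either. Its bright probe set, 1436303_at, read 15295, 13723 and 15419 on controls 1 to 3 and 12286, 10497 and 15127 on knockouts 1 to 3. Knockout 3 lay among the controls and knockouts 1 and 2 below all of them. The means were 14812 ± 946 and 12637 ± 2335 (SD, n = 3), and the log2 difference was -0.24 ± 0.15 (SE, interval -0.64 to 0.15, limma adjusted p = 0.376). It was -0.38 without knockout 3 and turned to 0.11 with the spike-in covariate. A second Afdn probe set, 1431799_at, lay between 4.20 and 4.23 on all arrays.

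**Figure D2:**
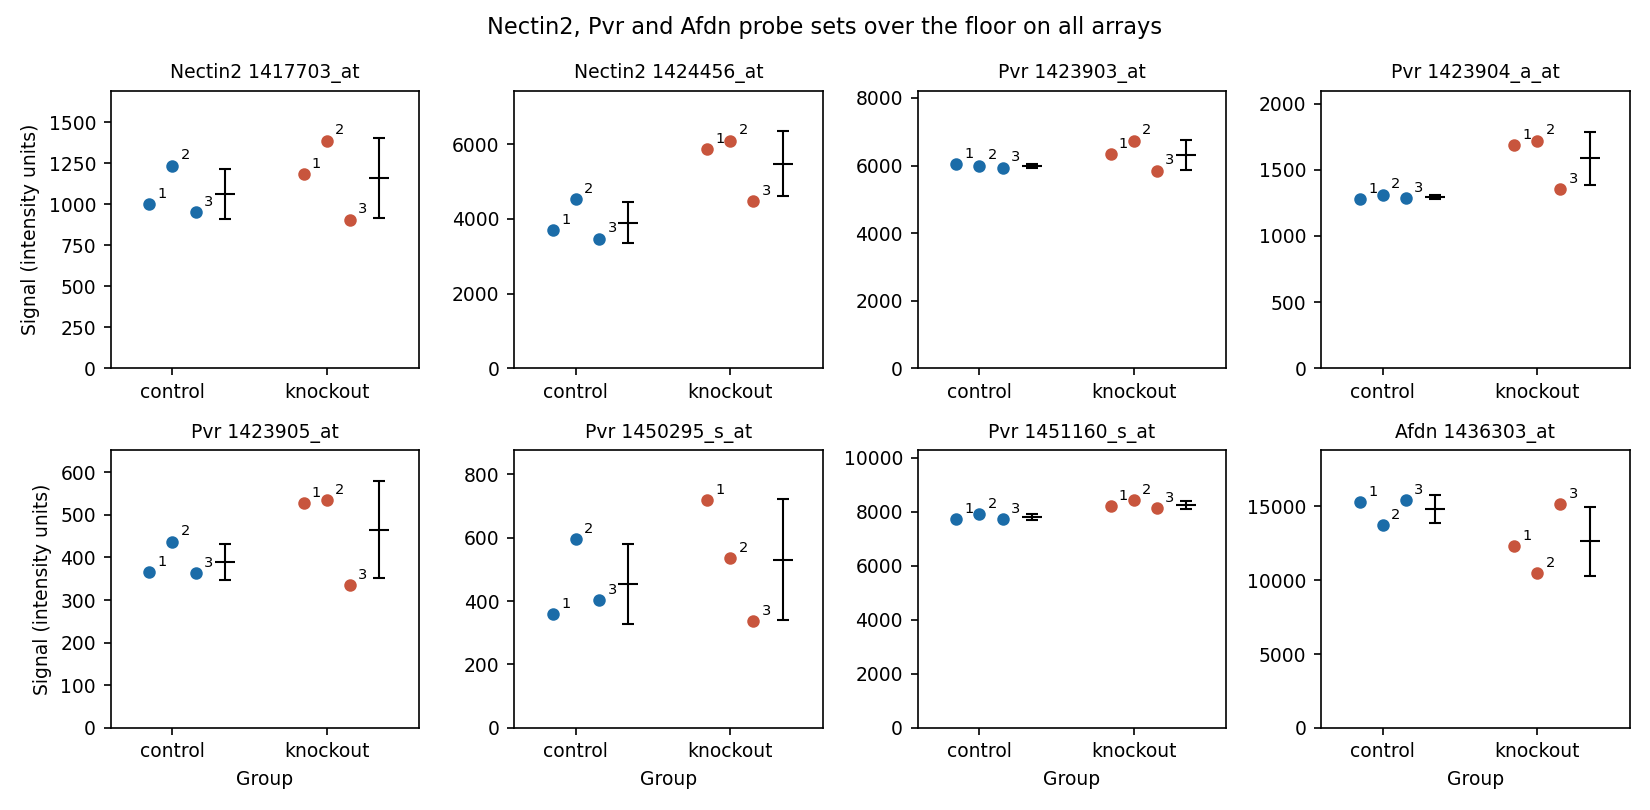
Signal (intensity units, from 0) of the 8 Nectin2, Pvr and Afdn probe sets over the floor on all arrays, with numbered points for the 3 arrays of each group and the mean ± SD beside them. Knockout 3 lies near or among the control points in most panels, for example at 905 in Nectin2 1417703_at and 15127 in Afdn.

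Of the 10 probe sets of Nectin2, Pvr and Afdn that passed the filter, 0 passed the limma test at an adjusted p of 0.05, and 3 had an unadjusted p under 0.05 (Nectin2 1424456_at and Pvr 1423904_a_at and 1451160_s_at). Over all 27022 probe sets tested 7.65% passed, 4.46% higher (1205) and 3.19% lower (861), and 26.4% (7146) had an unadjusted p under 0.05. The median log2 difference of the 10 was 0.11, against 0.0037 over all probe sets. The groups did not overlap in 3 of the 10, all of Pvr and 1 of them at the floor, against 31.2% of all probe sets tested. These genes were proposed together with Nectin3 from the same comparison, and nothing is read from the count.

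**Figure D3:**
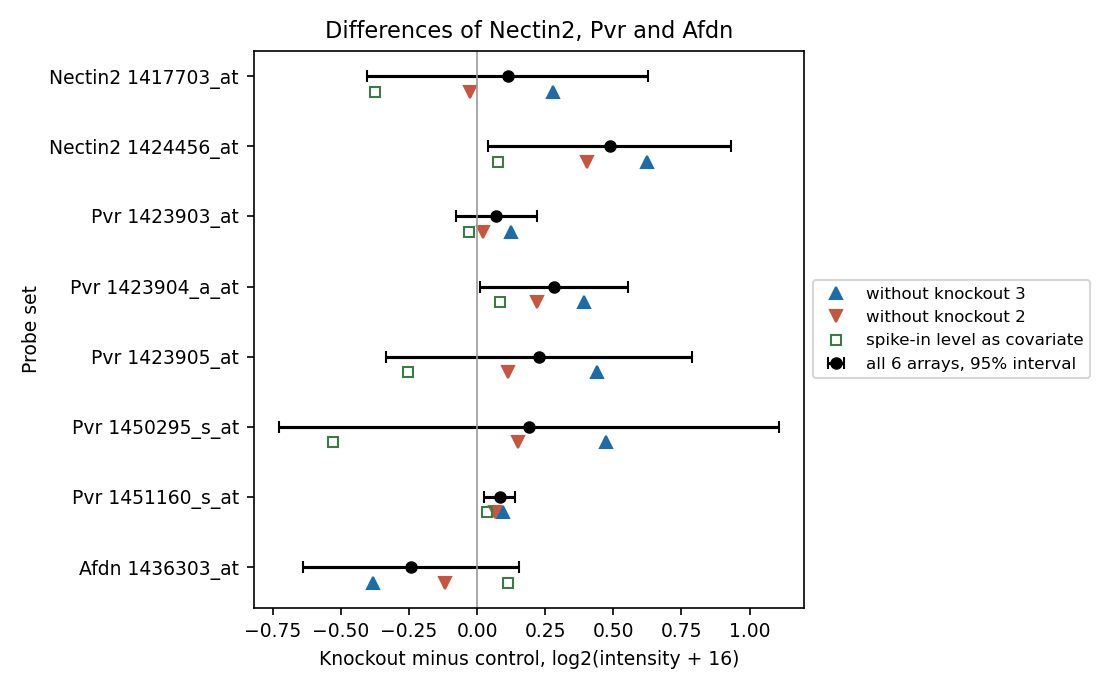
Knockout minus control difference on the log2(intensity + 16) scale for the 8 probe sets, with the 95% interval of the fit on all 6 arrays (black), and without knockout 3, without knockout 2 and with the spike-in level in the fit (coloured). Most triangles without knockout 3 lie farther from 0 than those without knockout 2, and the squares lie on the other side of 0 for 5 of the 8 probe sets.

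The order of the arrays was set beside the order of the spike-in level for Nectin2, Pvr and Afdn. From the lowest spike-in level to the highest the arrays were control 1, control 3, knockout 3, control 2, knockout 1 and knockout 2. Afdn was lowest on knockout 2, then knockout 1, then control 2, and near its top on the other 3 arrays. Knockouts 1 and 2 were the highest arrays in each Nectin2 and Pvr probe set over the floor except Nectin2 1417703_at and Pvr 1450295_s_at, where control 2 came between them. Since the spike-in level was also higher in most knockouts, the group and this level are partly confounded, and its part in the Nectin3, Nectin2, Pvr and Afdn values beyond the covariate fit was not tested.

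**Figure D4:**
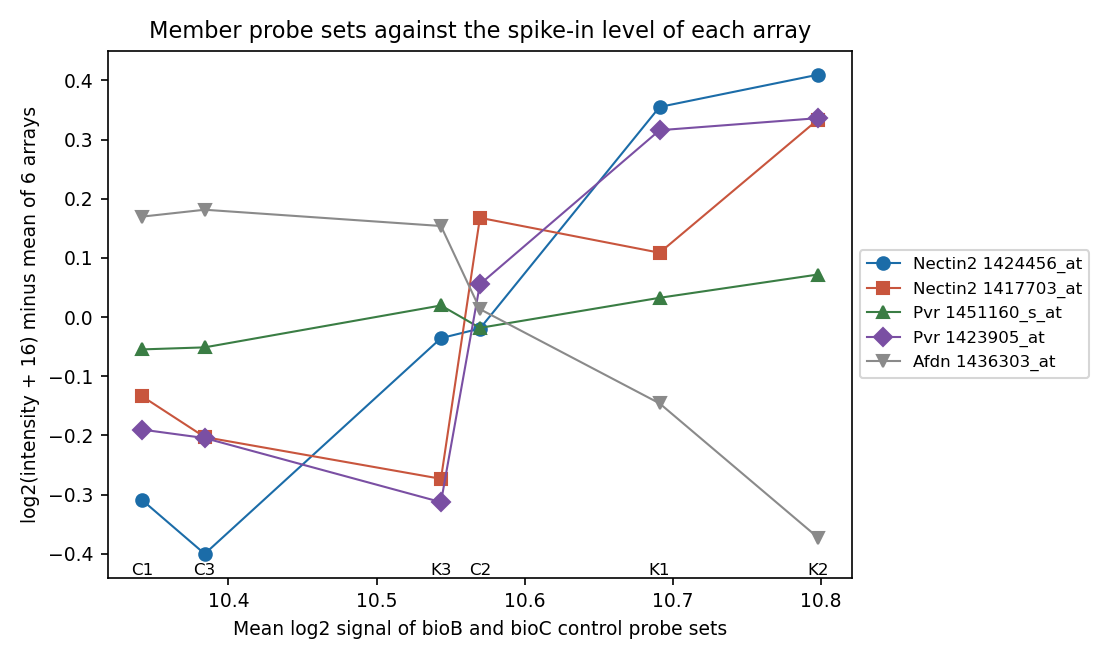
Log2(intensity + 16) of 5 Nectin2, Pvr and Afdn probe sets minus their mean over the 6 arrays (vertical axis) against the spike-in level, the mean log2 signal of bioB and bioC (horizontal axis), with arrays marked C for control and K for knockout. Nectin2 and Pvr lines end higher and the Afdn line ends lower at knockouts 1 and 2, which have the highest spike-in levels, 10.69 and 10.80.

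Genes that work with nectins at the junction showed no call. Of 20 listed partners of afadin and the adherens junction, 18 had probe sets, 43 in all, of which 31 were tested and 0 passed (limma; 14, or 45.2%, with an unadjusted p under 0.05, against 26.4% of all probe sets tested). The mean was lower in the knockouts in 17 of the 27 probe sets over the floor on all arrays, against 47.5% of all such probe sets, and the median log2 difference of those tested was -0.08. The brightest, Ctnnb1 1420811_a_at, which encodes the cadherin-binding β-catenin, read 34214, 31650 and 33959 on the controls and 30572, 31973 and 32087 on the knockouts, and the groups overlapped (log2 difference -0.08 ± 0.04, SE, adjusted p = 0.312). The other Ctnnb1 probe sets were lower in the knockouts without overlap and did not pass. Their differences were -0.40 ± 0.08 in 1430533_a_at (SE, limma adjusted p = 0.0536) and -0.28 ± 0.05 in 1450008_a_at (adjusted p = 0.0558).

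Of the 31 tested partner probe sets 15 had groups that did not overlap, against 31.2% of all probe sets tested, and none passed the test. The following were picked after their values were seen. Actn1 was higher without overlap in each of its 3 probe sets (log2 differences 0.23, 0.51 and 0.59). Lmo7 was lower without overlap in its 2 (-0.46 and -0.44). Smaller steps down without overlap were seen in Ctnnd1 1437448_s_at (-0.21, limma adjusted p = 0.0659) and in Ctnna1 1448149_at and 1437807_x_at (both -0.12). Vcl 1416156_at was slightly higher without overlap (0.08). Ctnnd1 1422450_at (-0.10) and Vcl 1416157_at (0.26) overlapped between the groups. VE-cadherin (Cdh5 1433956_at), the endothelial cadherin, read 19892, 23571 and 21343 on the controls and 19187, 15320 and 14351 on the knockouts (log2 difference -0.42 ± 0.14, SE, adjusted p = 0.147). The other Cdh5 probe set, 1422047_at, overlapped between the groups (-0.72 ± 0.36, adjusted p = 0.293). Plakoglobin (Jup), a catenin, read 9652, 10963 and 8404 against 6525, 7561 and 5407 (-0.58 ± 0.17, adjusted p = 0.116). Pard3 1434775_at, the polarity protein that binds nectin tails, read 125, 207 and 96.5 against 300.4, 333 and 311 (1.12 ± 0.27, adjusted p = 0.0852). Here all knockouts were above all controls, while of the other Pard3 probe sets over the floor 1436764_at overlapped between the groups and 1436765_at, near the floor, did not (0.19 ± 0.15, adjusted p = 0.472).

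Among 22 genes of signalling beside nectins (Rap, Rac and Cdc42 GTPases, their regulators, and the integrin and growth factor receptors that join nectins on the membrane), 3 of 52 tested probe sets passed, all lower, with 7 at an unadjusted p under 0.05 and a median of -0.08. The called share was 5.77%, against 7.65% called in either direction and 3.19% called lower over all probe sets tested, and the share at an unadjusted p under 0.05 was 13.5%, against 26.4%. Of the 3 called, 2 belong to Fgfr1, the FGF receptor that binds Nectin1. Fgfr1 1424050_s_at read 7443, 8712 and 8249 on the controls and 4056, 4510 and 3764 on the knockouts. All knockouts lay well below all controls, and it fell by 0.98 ± 0.09 on the log2 scale (SE, limma adjusted p = 0.0146). Fgfr1 1425911_a_at read 1533, 2031 and 1821 against 812, 952 and 659, and fell by 1.14 ± 0.18 (adjusted p = 0.0347). The third Fgfr1 probe set, 1436551_at, had a difference of -0.94 ± 0.23 and did not pass (adjusted p = 0.0887).

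The Fgfr1 calls were lost when certain arrays were left out. The call of 1424050_s_at was lost without control 1 (adjusted p = 0.0620), control 3 (0.0846) or knockout 1 (0.0733), with differences of -1.05 to -0.92 whichever array was left out. That of 1425911_a_at was kept, with 1 array left out, only without knockout 3 (0.0418); it was also lost with no filter on low values (0.0729). Its differences ran from -1.27 to -1.01. With controls 1 and 3 averaged neither passed (0.0729 and 0.121). The third call, Rac1 1451086_s_at, a GTPase of the actin cytoskeleton, read 17197, 17110 and 17408 on the controls and 16230, 16463 and 16248 on the knockouts. It fell by 0.08 ± 0.01 (adjusted p = 0.0466), and the call was lost with any 1 array left out (adjusted p 0.0649 to 0.188) and in most other settings. Over all 19 alternatives, those included, 3 passed and the adjusted p ran from 0.00209 to 0.478. The other Rac1 probe set with signal was not called. The brightest probe set of this list, Rap1b 1435519_at, a GTPase that binds afadin, did not pass (-0.23 ± 0.12, adjusted p = 0.301).

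The leukocyte receptors for nectins and nectin-like proteins that had a probe set were at the floor. Cd226, Cd96 and Crtam had 1 probe set each, between 4.30 and 4.88 on all arrays, and Tigit and Pvrig had no probe set of their own.

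The 5 genes whose log2 values over the 6 arrays were most like Nectin3 1423331_a_at were Fam110c, Nefl, Eif1ax, Gm11346 and Ctps, with Pearson r from 0.999 for Ctps upward. These r values rest on 6 arrays in 2 groups, so they mostly describe a step between the groups, and 84 of 22553 named probe sets had an r of at least 0.99. Fam110c read 4.42, 4.41 and 4.44 on the controls and 70.4, 71.8 and 67.1 on the knockouts. Nefl, a neurofilament subunit, also left the floor in this way, from 4.45 ± 0.02 to 561 ± 41.4 (SD, n = 3) in 1454672_at. Eif1ax, a translation initiation factor, had signal in both groups, 13943 ± 15.5 and 16182 ± 5.87, and Ctps, which makes the nucleotide CTP, 8567 ± 106 and 15069 ± 415 (SD, n = 3). The pattern this Nectin3 probe set shares with them is a step of any size that is even within the groups.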

How the data were processed

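Amplified, biotin-labelled RNA was hybridised to 1-colour Affymetrix arrays, 1 per sample. The authors deposited 1 linear intensity per probe set and array; MAS5 and GCRMA are listed in the submitters' processing notes, with no version or role given. From the values, quantiles are nearly equal between arrays, so no further normalization was applied; dim probe sets share nearly 1 value, which makes their spread very small. Probe sets were named from the platform annotation: of 45101, 34958 had 1 gene, 932 had several (not used), 9211 were not listed, and 34754 matched a current gene of the GRCm38.p6 gene table by gene number. The 64 array controls were left out, then the dimmest 40% by mean over the 6 arrays, leaving 27022.

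Groups follow the titles. Values were log2(intensity + 16), tested with limma 3.58.1 (lmFit and eBayes, two-sided) in R 4.3.3 over all probe sets, with Benjamini-Hochberg adjustment and a threshold of 0.05. Log2 differences understate changes of dim genes. A probe set under 16 in all 3 arrays of a group was at the floor; folds against it use the geometric mean over 16. The fit was tested on simulated data with noise drawn independently for each probe set and array. In the real arrays 1 shared axis held 84.2% of the within-group variance, so the simulation does not cover shared array effects. The number of arrays limits the precision. Figures were drawn with matplotlib 3.10.9.

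All member probe sets are named. By rule, so are those past the threshold (up to 6) and the brightest probe set of each pathway list. The rule also names the 2 brightest genes of each marker list and the 5 genes with the highest Pearson r to Nectin3. Any other gene or probe set of these lists, such as Actn1, Pard3, Tek and Erg, was named outside this rule, with its values known. The members, lists, rule and alternatives were chosen with earlier results of these data known. Alternatives were other scalings, pseudocounts, filters and eBayes settings, array weights, 1 probe set per gene, the replicate number as a block, single arrays left out, control 2 and knockout 3 left out together, controls 1 and 3 averaged, and the spike-in level as a covariate.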

Additional observations from a re-analysis of the deposited data

How the results depend on the processing

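Of all probe sets tested, 2066 passed the limma test, and this count moved widely: 860 with no filter, 14768 with array weights, 7951 without control 2 and knockout 3, 183 with controls 1 and 3 averaged, 1314 with the spike-in covariate, and 193 (without control 1) to 3618 (without knockout 3) with single arrays left out. The share of higher calls was 58.3% over all arrays and 36.8% with the spike-in covariate. The 3 calls among other genes of the pathway became 51, 23 and 0 with array weights, without control 2 and knockout 3, and with controls 1 and 3 averaged, and 0 to 5 with single arrays left out. The 0 calls among Nectin1, Nectin2, Pvr and Afdn became 7 with array weights, 3 without control 2 and knockout 3, and 0 to 1 with single arrays left out. The array weights were estimated gene by gene, a choice made after the default estimate did not converge. The cause of these changes was not tested.

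With the replicate number as a block the counts were 3777 over all probe sets, 6 in the pathway and 0 among Nectin1, Nectin2, Pvr and Afdn. Deviations of same-numbered arrays correlated at -0.48, 0.79 and 0.77, so the numbers were not taken as pairs; control 1 deviated most like knockout 3.

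Signs turned with the spike-in covariate in Nectin2 1417703_at (-0.38), Pvr 1423903_at (-0.031), 1423905_at (-0.25), 1429848_at (-0.035), 1445149_at (-0.024) and 1450295_s_at (-0.53), and Afdn 1436303_at (0.11). They also turned in Nectin2 1417703_at without knockout 2 (-0.026), in Pvr 1450295_s_at without knockout 1 (-0.055) and in Pvr 1445149_at, at the floor, without control 1 (-0.0040) or knockout 1 (-0.019). None of these turned values passed the test. The upper ends with an array left out, all without knockout 3, were 0.28 for Nectin2 1417703_at, 0.47 for Pvr 1450295_s_at and 0.020 for Pvr 1445149_at. The 4 Nectin3 probe sets that passed the filter stayed higher in the knockouts under every alternative in which they were kept. Nectin3 was chosen for this rise on the same arrays, so nothing is read from that. The lack of signal over the floor limits what can be said of Nectin1, for which a change below the floor would not be seen.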
